A study of Homo sapiens with 6 samples.

Results

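The 10 interferon-inducible antiviral effector genes described here were followed in BxPC-3 cells treated with miR-4711-5p: the dynamin-like GTPases MX1 and MX2, the membrane proteins IFITM1, IFITM2 and IFITM3, the small hydrophobic proteins IFI6 and IFI27, the cytoplasmic proteins IFI44 and IFI44L, and the surface tether BST2. They were picked out of the files by gene symbol, and all 10 were present among the 26255 symbols of the expression files. All 10 also passed the filter on low values, which kept 12040 genes. Every one of the 10 was higher in both miR-4711-5p libraries than in all 4 control libraries, as were 23.8% of all genes tested. The increases over Parent ran from 1.33-fold (IFITM2) to 10.7-fold (IFI6). In NC-1, the negative control, 5 of the 10 (MX1, IFI6, IFI27, IFI44 and IFI44L) were also higher than in Parent, by 1.27-fold to 1.91-fold. Both NC-1 libraries lay above both Parent libraries in these 5 genes and in 31.3% of all genes tested.

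BxPC-3 is an established cell line from a human pancreatic adenocarcinoma. Cells were sequenced as Parent (no treatment), after transfection of a negative control RNA (labelled NC-1), or after transfection of miR-4711-5p, 36 h after the start of treatment, with 2 libraries in each of the 3 groups. The question behind these libraries was which genes fall with miR-4711-5p. All libraries come from the same line, and the labels do not say whether the 2 libraries of a group came from separate cultures, so that every p-value below measures only the spread between these samples, which may be technical. Parent received no RNA and, per its label, no treatment. The presence of a duplex, the transfection itself and the sequence of the RNA therefore cannot be told apart in miR-4711-5p against Parent. The study's methods list a control duplex shorter than miR-4711-5p and a purchased control RNA, and the labels do not say which is NC-1. Sequence and other features of the RNA, such as its length or source, therefore cannot be told apart against NC-1 either. Expression is in FPKM, which scales reads by transcript length and by library size.

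As background, type I and type III interferons bind cell surface receptors and, through receptor-bound kinases, activate transcription factors that act on promoters. A complex that holds IRF9 binds the interferon-stimulated response element (ISRE) and switches on a broad set of antiviral genes, and another known promoter element of interferon signalling is the gamma-activated sequence (GAS). MX proteins bind viral nucleocapsids, IFITM proteins hinder the fusion of viral envelopes with cell membranes, and BST2 holds budding virions at the cell surface. Epithelial cells keep a low level of many of these genes without infection and raise them when interferon or foreign RNA is sensed.

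The mature miR-4711-5p (RefSeq, GRCh38.p14, chr1:59733269-59733291, minus strand, 23 bases) is shown because the 10 genes were examined for its sites, with the seed, bases 2 to 8, in capitals.
hsa-miR-4711-5p: uGCAUCAGgccagaagacaugag
The 3′ UTR sites that pair with this seed read CTGATGCA, CTGATGC or TGATGCA. All 10 genes have an annotated 3′ UTR (GENCODE v44 on GRCh37), and 0 of the 10 held such a site in the 3′ UTR of any annotated transcript. The canonical transcript of each gene was also searched over its whole length. Only MX2 held a site there, TGATGCA upstream of the 3′ UTR. Other transcripts outside their 3′ UTR, and pairing outside the seed, were not searched. The share of all genes with a 3′ UTR site was not computed, so the count has no background to be read against. The 3′ UTR of the canonical transcript measured from 159 bases (IFITM1) to 4336 bases (IFI44L).

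The promoters of the genes are shown next, as stretches of 30 bases around a match to the ISRE core, because the 10 genes moved together. The RefSeq promoter table (GRCh38.p14, 250 bases before to 50 bases after each annotated start) held 8 of the 10 genes, without MX2 and IFITM2. Each stretch is written in the direction of the gene, was located on GRCh37 by an exact match, and has the match in capitals. The ISRE core was searched as GAAANNGAAA on both strands, and a match on the opposite strand is printed as its reverse complement.
MX1, chr21:42792486-42792515, plus strand: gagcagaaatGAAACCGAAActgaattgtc
IFITM1, chr11:314024-314053, plus strand: acacttctgaGAAACTGAAAcgacagggga
IFITM3, chr11:320876-320905, minus strand: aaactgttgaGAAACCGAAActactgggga
IFI6, chr1:27998840-27998869, minus strand: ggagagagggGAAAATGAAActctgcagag
IFI6, chr1:27998799-27998828, minus strand: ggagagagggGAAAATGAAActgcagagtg
IFI27, chr14:94576964-94576993, plus strand: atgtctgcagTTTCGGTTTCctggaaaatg
IFI44, chr1:79115446-79115475, plus strand: gcacactgagTTTCAGTTTCctttctctga
IFI44L, chr1:79086050-79086079, plus strand: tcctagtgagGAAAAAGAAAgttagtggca
BST2, chr19:17516550-17516579, minus strand: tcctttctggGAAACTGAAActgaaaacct

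A match to the ISRE core lay in the promoter of all 8 genes with an entry, against 4.38% of the 27305 gene symbols in the table and 3.57% of its 35116 promoters. The GAS core, searched as TTCNNNGAA on both strands, was found in 4 of the 8 (MX1, IFITM1, IFI27 and BST2), against 9.38% of the symbols. In the lists described below, an ISRE match lay in 13 of 24 other antiviral effectors with an entry and 3 of 5 genes of the guanylate-binding list. It lay in 4 of 8 interferon genes, 3 of 10 sensors and adaptors, and 1 of 13 receptor and signalling genes. No match lay in 12 relatives or 7 binding partners. IFI6 held 3 ISRE matches, at 156, 115 and 93 bases before its start, and the stretches printed for the more distant pair are identical through the end of the match. IFI44L held 2 separate matches, at 164 and 73 bases before its start, and the letters of the 30-base stretches around them are identical. IFITM3 held 2 matches, beginning 52 and 35 bases before its start. IFITM1 held 1 that began 40 bases before its start and another that ran across it, from base -6 to base 4. The GAS match of IFITM1, from base -12 to base -4, overlapped the latter. The MX1 match printed above lay downstream of the start it belongs to, from base 12 to base 21, and a separate annotated MX1 start had a match on the opposite strand, from base -196 to base -187, which overlapped the GAS match. In BST2, 2 ISRE matches overlapped, at 130 and 124 bases before the start, and a GAS match overlapped the more distant of them. In IFI27 a GAS match overlapped 2 ISRE matches. These matches are a description of the letters in these windows, and no binding was measured.

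**Figure D1:**
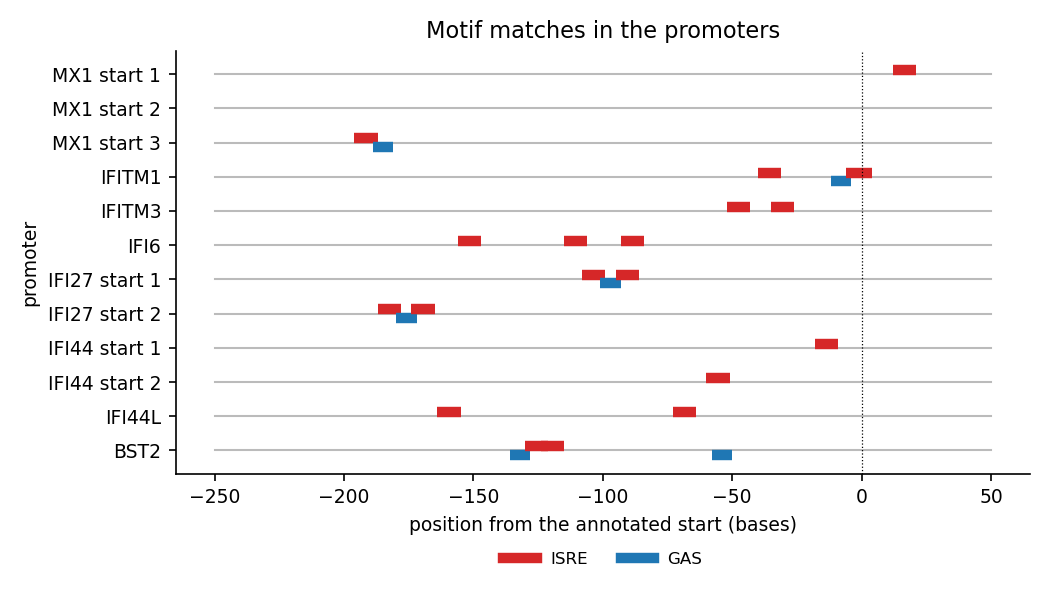
Position of each match to the ISRE core (red) and the GAS core (blue) in the promoters of the 8 genes with an entry, with the horizontal axis giving the distance in bases from the annotated start (dotted line) and grey lines the searched stretch of 300 bases. Genes with several annotated starts have a line each, and at least 1 start of every gene has an ISRE match, such as the 3 in IFI6.

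Depth is known only relative to the first Parent library and lay between 0.751 and 1.21 of it, highest in the miR-4711-5p libraries (1.08 and 1.21), and its part in the results was not tested. Between 16597 and 17305 genes had a value above 0, and the 10 highest genes made up 6.54% to 7.12% of the summed FPKM of a library. The 6 epithelial markers (KRT7, KRT8, KRT18, KRT19, EPCAM and CDH1) summed to 5195 to 6247 FPKM, and SMAD4, which BxPC-3 lacks, was listed at 0 in every library. Among these markers CDH1 (log2 fold change -1.93) and KRT19 (-0.85) were called lower in miR-4711-5p than in Parent and KRT18 (0.19) higher. The 7 leukocyte markers summed to between 1.61 and 2.86 FPKM, with TYROBP and MS4A1 at 0 in every library, with 1.61 to 1.75 in Parent, 2.49 to 2.86 in NC-1 and 1.66 to 2.57 in miR-4711-5p. The 4 plasmacytoid dendritic cell markers, which mark cells that make much interferon, summed to at most 0.103 FPKM, with IL3RA and TCL1A at 0 in every library. The 6 fibroblast markers summed to 1.31 to 1.87 FPKM in Parent, 2.14 to 2.47 in NC-1 and 1.92 to 2.24 in miR-4711-5p. The 4 endothelial markers summed to 1.33 to 1.39 FPKM in Parent, 3.25 to 3.53 in NC-1 and 0.649 to 0.775 in miR-4711-5p, most of it from CDH5, which was called higher in NC-1 than in Parent (log2 fold change 1.03, limma adjusted p = 0.00204) and lower in miR-4711-5p than in NC-1 (-1.38, adjusted p = 0.000165). In the comparison of miR-4711-5p with Parent the reference genes were TBP (log2 fold change 0.02), HPRT1 (-0.12), ACTB (-0.13) and GAPDH (-0.23). Each changed less in size than any of the 10 genes, of which IFITM2 changed least (0.41). ACTB and GAPDH were called lower.

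MX1, a cytoplasmic GTPase that blocks influenza virus and many other RNA viruses, lies at chr21:42791947-42841998 on the plus strand (GRCh37). Its level was 6.91 and 7.09 FPKM in the Parent libraries, 8.56 and 9.17 in NC-1, and 73.5 and 65.4 in miR-4711-5p. The miR-4711-5p libraries stood far above the other 4, and NC-1 stood above Parent with no overlap. The increase over Parent was 9.93-fold (log2 fold change 3.14, SE 0.07, limma adjusted p = 2.81e-06), which ranked 8 of the 12040 genes by log2 fold change, and over NC-1 it was 7.83-fold (2.83, adjusted p = 3.18e-06). In bulk RNA, more RNA per cell and more cells expressing a gene cannot be told apart, here and for every gene below. The MX1 locus overlaps TMPRSS2 on the opposite strand, and the libraries were made with a stranded kit, but the strand setting of the counting is not given in the sources used here.

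MX2, the nuclear envelope relative of MX1 that acts on retroviruses and herpesviruses, lies next to it at chr21:42733926-42781320. It started higher and rose less. Its level was 30.9 and 32.0 FPKM in Parent, 31.3 and 32.0 in NC-1, and 63.6 and 59.4 in miR-4711-5p. Parent and NC-1 overlapped, and both miR-4711-5p libraries stood above them. The increase was 1.95-fold over Parent (log2 fold change 0.94, SE 0.05, limma adjusted p = 1.87e-05) and 1.94-fold over NC-1 (0.94, adjusted p = 2.25e-05). Within a library the ratio of MX1 to MX2 was 0.223 and 0.222 in Parent, 0.273 and 0.287 in NC-1, and 1.16 and 1.10 in miR-4711-5p. MX1 was therefore the lower of the pair in all 4 control libraries and the higher in both miR-4711-5p libraries.

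**Figure D2:**
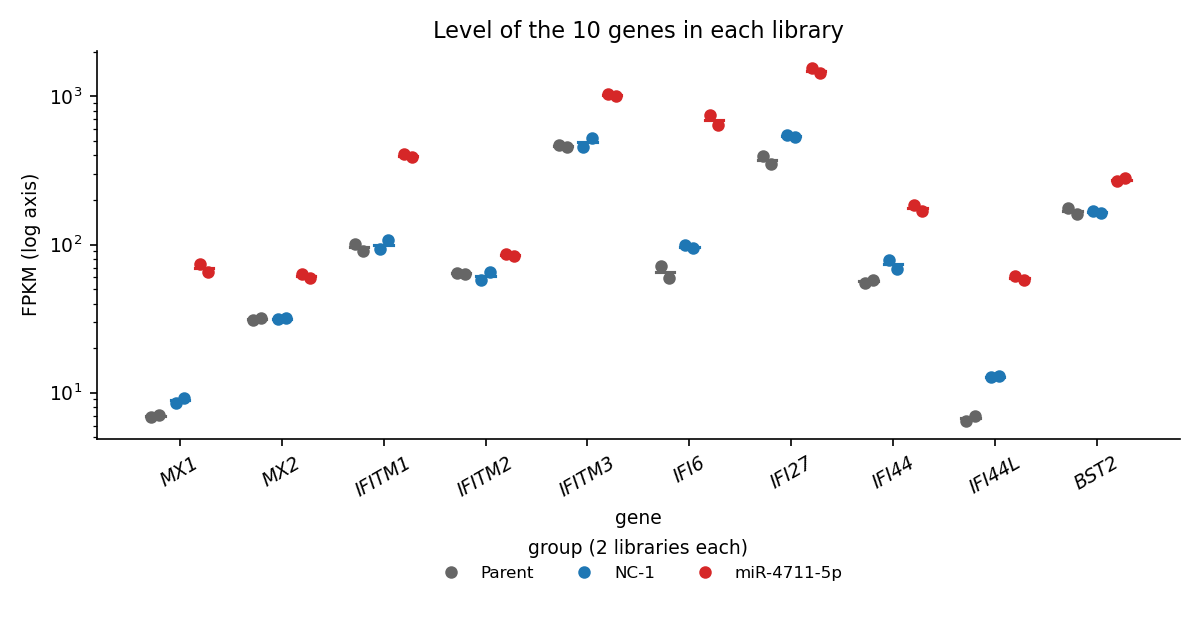
FPKM of the 10 genes (vertical axis, log scale) in each library, with Parent in grey, NC-1 in blue and miR-4711-5p in red, a point for each library and a short bar for the mean of the 2. For every gene both red points lie above all 4 control points, most widely for IFI6, MX1 and IFI44L, where NC-1 also lies above Parent.

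The IFITM genes lie side by side on chromosome 11 and encode short transmembrane proteins. IFITM1, found mainly at the plasma membrane (chr11:310041-315272, plus strand), was at 101 and 90.5 FPKM in Parent, 93.1 and 107 in NC-1, and 408 and 388 in miR-4711-5p. The control groups overlapped and the miR-4711-5p libraries were 4.15-fold above Parent (log2 fold change 2.04, SE 0.08, limma adjusted p = 5.32e-06) and 3.98-fold above NC-1 (1.99, adjusted p = 7.78e-06). IFITM3, the endosomal member best known for restricting influenza virus entry (chr11:319676-329475, minus strand), was at 471 and 456 FPKM in Parent, 458 and 523 in NC-1, and 1044 and 1005 in miR-4711-5p. Again the control groups overlapped, and the increase was 2.21-fold over Parent (log2 fold change 1.14, SE 0.06, limma adjusted p = 2.15e-05) and 2.09-fold over NC-1 (1.06, adjusted p = 3.33e-05).

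IFITM2, the other endosomal member (chr11:303655-309397, plus strand), changed least of the 10 genes. It was at 64.4 and 63.2 FPKM in Parent, 57.3 and 65.5 in NC-1, and 85.9 and 84.2 in miR-4711-5p. The miR-4711-5p libraries still stood apart from the 4 controls, by 1.33-fold over Parent (log2 fold change 0.41, SE 0.06, limma adjusted p = 0.00231) and 1.39-fold over NC-1 (0.47, adjusted p = 0.00143), at rank 1043 by log2 fold change over Parent. The ratio of IFITM1 to IFITM2 within a library was 1.57 and 1.43 in Parent, 1.62 and 1.63 in NC-1, and 4.75 and 4.61 in miR-4711-5p. The ratio of IFITM2 to IFITM3 went the other way, from 0.137 and 0.139 in Parent and 0.125 in both NC-1 libraries to 0.0823 and 0.0838. These genes share sequence, which bears on how reads were divided among them. Of the 75-base windows of the canonical transcript, the read length of the study, 11.3% in IFITM1 also occur in IFITM3 and 4.21% in IFITM2, and 52.2% occur in some other annotated gene, mainly an annotated read-through gene across the locus (ENSG00000288681). The shares with any other gene were 7.08% for IFITM2 and 12.5% for IFITM3, so the levels of the 3 genes are uncertain to the extent that the counting split these reads.

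IFI6, a small hydrophobic protein of mitochondria and the endoplasmic reticulum that restricts flaviviruses and counters apoptosis (chr1:27992575-27998723, minus strand), had the largest increase of the 10 genes. Its level was 71.4 and 59.3 FPKM in Parent, 99.8 and 94.3 in NC-1, and 753 and 640 in miR-4711-5p. The 3 groups did not overlap. It was 10.7-fold higher in miR-4711-5p than in Parent (log2 fold change 3.40, SE 0.10, limma adjusted p = 3.30e-06), rank 6 of 12040, and 7.18-fold higher than in NC-1 (2.83, adjusted p = 5.74e-06). IFI6 shares 19.2% of its 75-base windows with LINC02574, a non-coding gene annotated on the same strand.

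IFI27, a related hydrophobic protein of inner membranes (chr14:94571182-94583032, plus strand), had the highest level of the 10 genes after miR-4711-5p. It was at 396 and 352 FPKM in Parent, 547 and 535 in NC-1, and 1547 and 1445 in miR-4711-5p. The groups did not overlap, and the increase was 4.0-fold over Parent (log2 fold change 2.0, SE 0.06, limma adjusted p = 3.36e-06) and 2.77-fold over NC-1 (1.46, adjusted p = 9.00e-06). The ratio of IFI6 to IFI27 was 0.181 and 0.168 in Parent, 0.182 and 0.176 in NC-1, and 0.487 and 0.443 in miR-4711-5p. This ratio overlapped between the control groups even though both genes were higher in NC-1 than in Parent.

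IFI44 and IFI44L are neighbouring paralogs on chromosome 1, of which IFI44L is known to dampen the interferon response. IFI44 (chr1:79115481-79129763) was at 54.6 and 58.1 FPKM in Parent, 78.5 and 68.8 in NC-1, and 184 and 169 in miR-4711-5p. IFI44L (chr1:79085587-79111830) was at 6.45 and 6.96 FPKM in Parent, 12.7 and 12.9 in NC-1, and 61.4 and 57.3 in miR-4711-5p. In both genes the groups were ordered Parent, NC-1, miR-4711-5p without overlap. IFI44 was 3.13-fold above Parent (log2 fold change 1.63, SE 0.07, limma adjusted p = 9.30e-06) and 2.40-fold above NC-1 (1.25, adjusted p = 3.11e-05). IFI44L was 8.85-fold above Parent (log2 fold change 2.97, SE 0.06, limma adjusted p = 2.81e-06) and 4.64-fold above NC-1 (2.13, adjusted p = 3.18e-06). The IFI44L to IFI44 ratio was 0.118 and 0.120 in Parent, 0.161 and 0.188 in NC-1, and 0.334 and 0.339 in miR-4711-5p.

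BST2, also called tetherin (chr19:17513748-17516439, minus strand), was at 176 and 160.1 FPKM in Parent, 169 and 163 in NC-1, and 267 and 280.2 in miR-4711-5p. Parent and NC-1 overlapped, and the miR-4711-5p libraries were higher than both, by 1.63-fold over Parent (log2 fold change 0.70, SE 0.06, limma adjusted p = 0.000113) and 1.64-fold over NC-1 (0.71, adjusted p = 0.000123).

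All 10 genes were thus called higher in miR-4711-5p against Parent and all 10 against NC-1, where called means an adjusted p below 0.05 in limma over all 12040 genes, and 0 of the 10 were called lower. Of all genes tested, 18.7% were called higher and 24.7% lower against Parent, and 18.4% were called higher and 21.2% lower against NC-1. The median log2 fold change of the 10 genes was 1.81 over Parent and 1.36 over NC-1, beside -0.01 and 0.00 for all genes. Both miR-4711-5p libraries lay above all 4 control libraries in 10 of the 10 genes, a pattern that 23.8% of all genes tested showed. The comparisons with Parent and with NC-1 use the same miR-4711-5p libraries and are not independent of each other. A single gene with 2 libraries against 2 cannot reach an exact permutation p below 0.333, so the small adjusted p-values depend on limma pooling the spread of all genes.

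**Figure D3:**
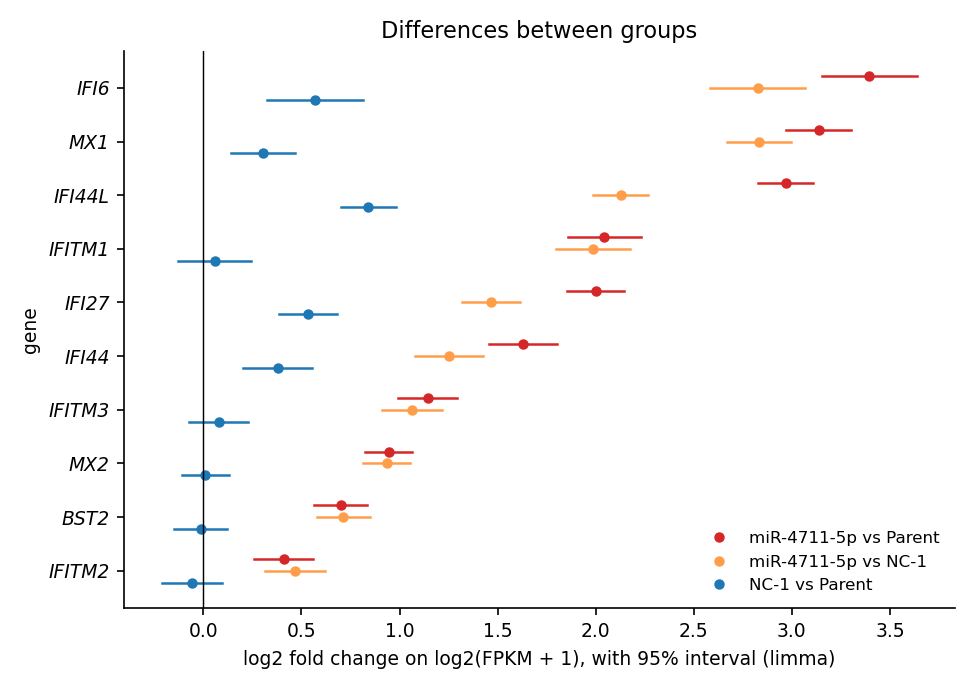
Log2 fold change of each of the 10 genes on log2(FPKM + 1) (horizontal axis) with its 95% interval from limma, for miR-4711-5p against Parent (red), miR-4711-5p against NC-1 (orange) and NC-1 against Parent (blue). Red and orange intervals lie right of 0 for all 10 genes, from 0.41 for IFITM2 to 3.40 for IFI6 against Parent, and the blue intervals of MX2, IFITM1, IFITM2, IFITM3 and BST2 include 0.

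Transfection of NC-1 divided the genes into those that also differed from Parent and those that did not pass the test. IFI44L was highest in this comparison, at 1.91-fold (log2 fold change 0.84, 95% interval 0.70 to 0.98, limma adjusted p = 0.000437). IFI6 was 1.48-fold higher in NC-1 (log2 fold change 0.57, adjusted p = 0.00884), IFI27 1.45-fold (0.53, adjusted p = 0.00214) and IFI44 1.31-fold (0.38, adjusted p = 0.0114). MX1 was 1.27-fold higher (0.30, adjusted p = 0.0200), a call that was lost when any single Parent or NC-1 library was left out. With 1 library left out, the number of the 10 genes called in this comparison fell to as few as 2, without the first NC-1 library.

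For the other 5 genes the interval of the NC-1 to Parent difference is the useful value. On the log2 scale it ran from -0.11 to 0.13 for MX2, from -0.13 to 0.24 for IFITM1, from -0.21 to 0.09 for IFITM2, from -0.07 to 0.23 for IFITM3 and from -0.15 to 0.12 for BST2. An increase as large as that of IFI44L lies outside all 5 of these intervals. In all, 5 of the 10 genes were called higher in NC-1 than in Parent and 0 lower, where 12.1% of all genes were called higher and 15.1% lower. Both NC-1 libraries lay above both Parent libraries in the same 5 genes, a pattern seen in 31.3% of all genes tested. The median log2 fold change of the 10 genes was 0.19 in this comparison, beside -0.01 for all genes. The summed leukocyte, fibroblast and endothelial markers were also higher in both NC-1 libraries than in both Parent libraries, and their part in these differences was not tested. Most of these sums came from CD14, COL1A1 and CDH5 in that order, of which only CDH5 was called in NC-1 against Parent. The other markers of these lists stayed below 1 FPKM and went both ways, with CD3E higher and VWF lower in NC-1.

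Set against the increase with miR-4711-5p, the NC-1 difference was small on the FPKM scale. As a share of the FPKM increase from Parent to miR-4711-5p, the increase from Parent to NC-1 amounted to 14.9% for IFI27, 14.4% for IFI44, 11.6% for IFI44L, 5.02% for IFI6 and 3.0% for MX1. The order of the genes by this share differed from their order by fold change, in which IFI6 and MX1 led. On the log2 scale the NC-1 difference made up a larger part of the increase over Parent. It was 0.84 beside 2.97 for IFI44L, 0.53 beside 2.0 for IFI27 and 0.38 beside 1.63 for IFI44. For IFI6 it was 0.57 beside 3.40, and for MX1 0.30 beside 3.14.

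Together the 10 genes made up 1379 and 1286 FPKM in the Parent libraries, 1556 and 1611 in NC-1, and 4488 and 4194 in miR-4711-5p. These sums were 0.244% ± 0.00966 (SD, n = 2) of all FPKM in Parent, 0.307% ± 0.00767 in NC-1 and 0.875% ± 0.050 in miR-4711-5p. The makeup of the sum also shifted. IFI6 supplied 5.18% and 4.61% of it in Parent and 16.8% and 15.3% in miR-4711-5p, whereas IFITM3 went from 34.2% and 35.5% to 23.3% and 24%. The ratio of the highest to the lowest of the 10 genes narrowed from 73.0 and 65.5 in Parent, and 63.9 and 58.3 in NC-1, to 25.2 in both miR-4711-5p libraries.

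By mean FPKM, a scale already divided by gene length, the order in Parent from high to low was IFITM3, IFI27, BST2, IFITM1, IFI6, IFITM2, IFI44, MX2, MX1 and IFI44L. The libraries of IFI6 and IFITM2, and those of MX1 and IFI44L, overlapped, so these neighbours did not differ beyond their spread. In NC-1 the order was IFI27, IFITM3, BST2, IFITM1, IFI6, IFI44, IFITM2, MX2, IFI44L and MX1, with an overlap of IFITM1 and IFI6. After miR-4711-5p it was IFI27, IFITM3, IFI6, IFITM1, BST2, IFI44, IFITM2, MX1, MX2 and IFI44L, with an overlap of MX2 and IFI44L. IFI6 thus passed BST2 and IFITM1 between Parent and miR-4711-5p.

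**Figure D4:**
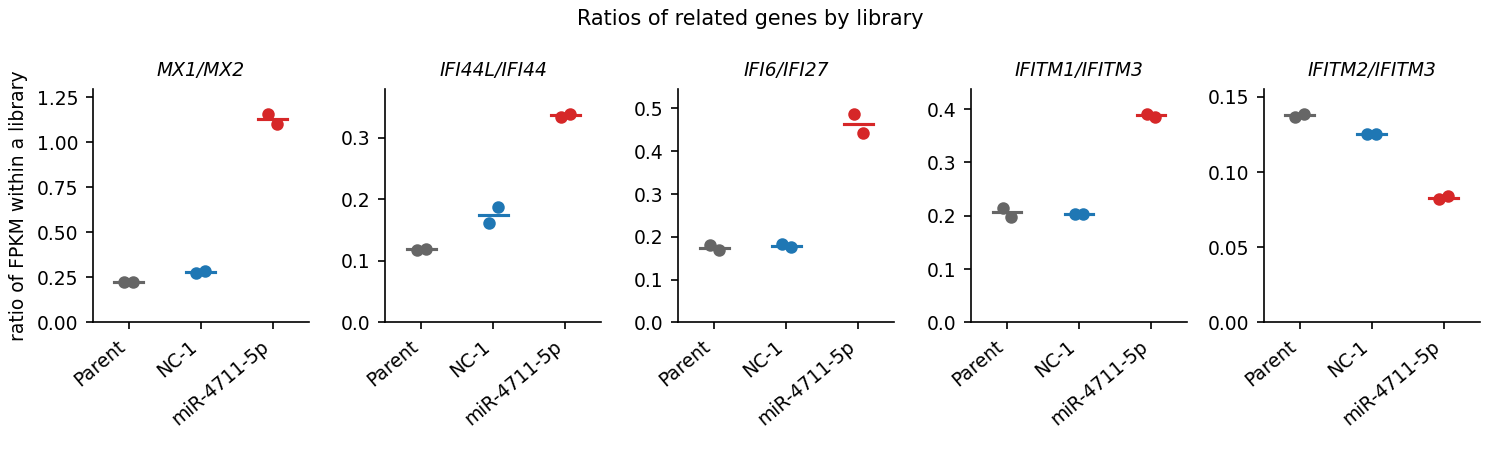
Ratio of the FPKM of 2 related genes within each library (vertical axes, each starting at 0) for 5 pairs, with Parent in grey, NC-1 in blue, miR-4711-5p in red, a point for each library and a bar for the mean. The red points lie outside the range of the 4 control points in each panel, above it for MX1/MX2 (1.16 and 1.10), IFI44L/IFI44, IFI6/IFI27 and IFITM1/IFITM3 (0.391 and 0.386), and below it for IFITM2/IFITM3.

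Genes related to the 10 by sequence or protein fold, but not known as interferon effectors, were called lower or not called against Parent. Of 16 relatives, among them the dynamins, mitofusins, IFITM5, IFITM10 and IFI27L2, 10 were tested, and 0 were called higher and 3 lower in miR-4711-5p against Parent, with a median log2 fold change of -0.08. DNM1, the neuronal dynamin of endocytosis, had the largest value, 0.40 (limma adjusted p = 0.0519), followed by TMEM91 (0.20, adjusted p = 0.460). MFN2, a mitofusin of the outer mitochondrial membrane, was lowest and was called lower (-0.41, adjusted p = 0.000351). Against NC-1, 1 of the 10 relatives was called higher and 3 lower, and in NC-1 against Parent 1 was called higher and 1 lower. Beside these counts and those of the lists below, 18.7% of all genes tested were called higher and 24.7% lower against Parent. The shares were 18.4% and 21.2% against NC-1, and 12.1% and 15.1% in NC-1 against Parent.

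The guanylate-binding proteins are interferon-inducible GTPases of another family, and IRGM, a further GTPase, was listed with them. Of 8 genes 5 were tested, and 4 were called higher in miR-4711-5p against Parent, with a median log2 fold change of 0.80. In NC-1 against Parent all 5 were called higher, with a median of 0.62, and in miR-4711-5p against NC-1 the count was 2 of 5, with a median of 0.06. GBP1 was at 15.6 and 16.1 FPKM in Parent, 28.0 and 25.3 in NC-1, and 40.3 and 36.7 in miR-4711-5p, so that it was called in all 3 comparisons. GBP3 was also called in all 3, with a log2 fold change of 1.01 over Parent (limma adjusted p = 1.20e-05). GBP6 was at 7.06 and 7.01 FPKM in Parent, 8.79 and 8.40 in NC-1, and 7.41 and 7.68 in miR-4711-5p, highest in NC-1.

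Other antiviral effectors of the interferon response were called higher in 28 of 31 genes tested (of 32 listed) against Parent, 27 of 31 against NC-1 and 15 of 31 in NC-1 against Parent, with none called lower in any of the 3 comparisons. Their median log2 fold changes were 1.27, 1.09 and 0.20. IFIT1, which binds foreign RNA caps, was at 10.3 and 9.43 FPKM in Parent, 11.0 and 9.96 in NC-1, and 81.4 and 72.7 in miR-4711-5p (log2 fold change over Parent 2.85, limma adjusted p = 2.81e-06). TRIM22, a ubiquitin ligase, reached 2.25 (adjusted p = 1.64e-05). SLFN11, a restriction factor for retroviruses, had the lowest value and was not called (-0.15, adjusted p = 0.322).

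**Figure D5:**
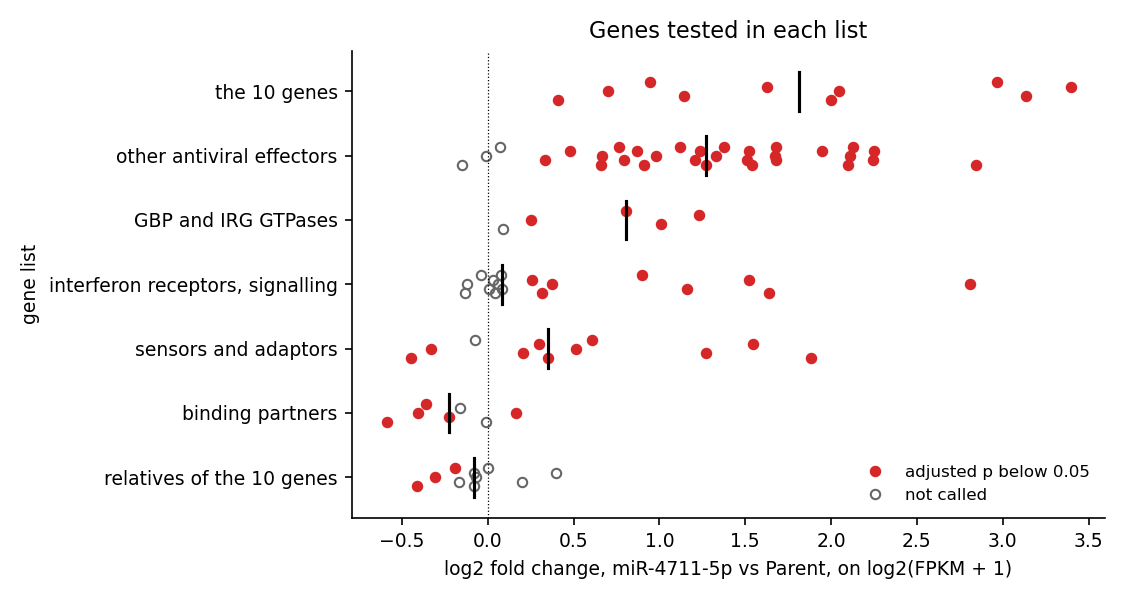
Log2 fold change of miR-4711-5p against Parent on log2(FPKM + 1) (horizontal axis) for every tested gene of each list (rows), with filled points for an adjusted p below 0.05 in limma, open points for the others and a bar at the median. The 10 genes have the highest median (1.81), followed by the other antiviral effectors (1.27), whereas the relatives center near 0 (-0.08).

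Among interferon receptors and signalling genes, 8 of 17 tested (of 19 listed) were called higher against Parent and none lower, with a median log2 fold change of 0.08. The receptor chain IFNAR1 was lowest and was not called (-0.13, limma adjusted p = 0.104). IRF9, named here for its role in the background above and not by the naming rule, was called higher (1.52, adjusted p = 3.95e-06). USP18, the inhibitor that dampens signalling at the receptor, was at 2.49 and 3.23 FPKM in Parent, 4.19 and 4.51 in NC-1, and 28.6 and 23.6 in miR-4711-5p (2.81, adjusted p = 6.78e-06). Against NC-1 6 of the 17 were called higher and 4 lower, and in NC-1 against Parent 9 were called higher and none lower.

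Of the sensors and adaptors that detect nucleic acids, 8 of 11 tested (of 15 listed) were called higher and 2 lower against Parent, 7 higher and 3 lower against NC-1, and 2 higher and none lower in NC-1 against Parent. DDX58, the sensor RIG-I for short double-stranded RNA ends, was at 11.3 and 12.4 FPKM in Parent, 16.4 and 16.1 in NC-1, and 48.8 and 43.8 in miR-4711-5p (log2 fold change over Parent 1.88, limma adjusted p = 4.87e-06). IFIH1, the sensor of long double-stranded RNA, was at 1.54 (adjusted p = 4.30e-06). TMEM173, the adaptor STING of the DNA-sensing pathway, was called lower (-0.45, adjusted p = 0.00119).

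Interferon transcripts themselves were scarce. None of the 9 listed interferon genes passed the filter on low values, and IFNA1, IFNW1, IFNK, IFNE and IFNG were listed at 0 in all 6 libraries. IFNB1 was listed at 0 in all 4 control libraries and at 0.613 and 0.234 FPKM in miR-4711-5p. IFNL1 was at 0.0919 and 0.421 FPKM in Parent, 0 and 0.214 in NC-1, and 0.342 and 0.609 in miR-4711-5p, with overlap between Parent and miR-4711-5p. IFNL2 and IFNL3 had a value above 0 in the first miR-4711-5p library only, at 0.210 and 0.569 FPKM. The 9 genes summed to between 0.0919 and 0.421 FPKM in Parent, at most 0.214 in NC-1, and 0.843 to 1.73 in miR-4711-5p. Whether these transcripts had a part in the levels of the 10 genes was not tested.

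Of 8 listed genes whose proteins are known to bind the effectors, 7 were tested, and 1 was called higher and 4 lower against Parent, with a median log2 fold change of -0.23, where 18.7% of all genes were called higher and 24.7% lower. HSPA5, the endoplasmic reticulum chaperone that binds IFI6, was called higher by a small amount (0.17, limma adjusted p = 0.0200). NR4A1, a nuclear receptor reported to bind IFI27, was at -0.01 (adjusted p = 0.959), and FKBP5, a partner of IFI44L, was called lower (-0.59, adjusted p = 0.000834). FKBP5 averaged 7.85 FPKM in Parent, 6.29 in NC-1 and 4.87 in miR-4711-5p.

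The mean profile of the 10 genes, as the difference in log2(FPKM + 1) from the Parent mean, was 0.03 and -0.03 in Parent, 0.25 and 0.29 in NC-1, and 1.88 and 1.79 in miR-4711-5p. The 5 other genes nearest to it by Euclidean distance over the 6 libraries were SP110 (0.176), CYR61 (0.183), IFIT3 (0.198), IFIT2 (0.244) and CXCL5 (0.271). SP110, an interferon-inducible nuclear body protein, was at 12.1 and 11.5 FPKM in Parent, 13.1 and 14.7 in NC-1, and 42.8 and 40.6 in miR-4711-5p. IFIT2 and IFIT3 are antiviral effectors of the list above. CYR61, a secreted matrix protein, and CXCL5, a neutrophil chemokine, are not usually counted among the interferon effectors, and CXCL5 had a low level, from 0.903 to 5.73 FPKM.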

How the data were processed

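RNA from BxPC-3 cells was sequenced in 6 libraries, 2 each from Parent, NC-1 and miR-4711-5p cells. The authors used a stranded mRNA kit and single-end reads of 75 bases, mapped them to hg19 and deposited FPKM values per gene symbol, normalized for gene length and library size. The submitters' processing notes name TopHat2 2.1.1, Bowtie2 2.3.5.1, SAMtools 1.2, Cufflinks 2.2.1 and Cuffdiff, while the study's methods name other versions of some of these and Cuffnorm. The gene annotation, the strand setting and the normalization option are not given in the sources used here. The count of reads behind a value is unknown, so no counting interval is given, and relative depth was read from the steps between low values.

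Groups were taken from the sample titles. Genes averaging 1 FPKM or more across all 6 libraries (12040 of 26255) were fitted on log2(FPKM + 1) with limma 3.58.1 (lmFit, contrasts.fit, eBayes with a trend) in R 4.3.3. The 3 groups entered 1 fit that left 3 residual degrees of freedom, moderated by 4.15 prior ones, without a replicate block. Tests were two-sided with Benjamini-Hochberg adjustment over all genes tested, at a threshold of 0.05. Log2 fold changes are on the log2(FPKM + 1) scale and understate changes of low genes, whereas folds are ratios of mean FPKM. The procedure was tested on simulated data. Alternatives were pseudocounts of 0.1 and 0.5, filters of 5 FPKM or none, rescaling by median of ratios or upper quartile, a 1.5-fold minimum, no trend, a fit of only the groups compared, a replicate block and each library left out.

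The rule for the 10 genes used symbols and no measured value, but the 10 genes and all lists were chosen with earlier results of these data known. Of each list the text names the 2 genes with the largest and the 1 with the smallest log2 fold change of miR-4711-5p against Parent, all interferon and reference genes, and the 5 genes nearest to the mean profile of the 10. A gene of the signalling list is not reported here by name. Motifs, seed sites and shared windows were searched with Python 3.11.15 in RefSeq promoters, and in GENCODE v44 transcripts on GRCh37.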

Additional observations from a re-analysis of the deposited data

How the results depend on the processing

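All 10 genes were called higher in miR-4711-5p against Parent, and against NC-1, under every alternative except a required change of 1.5-fold, which left 9 in each because IFITM2 (0.41 and 0.47) fell below it. In NC-1 against Parent, 5 genes were called, 4 without a filter, 1 (IFI44L) with 1.5-fold required, and 2 to 5 with a library left out (3 without the first Parent library, 2 without the first NC-1 library). Here MX1 lost its call without a filter (adjusted p = 0.0536) and without any 1 of the Parent and NC-1 libraries (adjusted p 0.0551 to 0.0988), IFI6 without the first NC-1 library (0.0616), and IFI44 without that library (0.0551) or the first Parent library (0.0820), all in limma. None of the 5 genes not called in NC-1 against Parent became called, but their small log2 differences changed sign. With libraries left out in turn they ran from -0.0134 to 0.032 for MX2, -0.0404 to 0.155 for IFITM1, -0.153 to 0.0364 for IFITM2, -0.0175 to 0.174 for IFITM3 and -0.0837 to 0.0553 for BST2. The sign changes took MX2 to -0.0134 without the first Parent and -0.00473 without the second NC-1 library, IFITM1 to -0.0243 without the second Parent and -0.0404 without the second NC-1 library, IFITM2 to 0.00133 with upper-quartile scaling and 0.0364 without the first NC-1 library, IFITM3 to -0.0175 without the second NC-1 library, and BST2 to 5.04e-05 with median-of-ratios scaling, 0.0458 with upper-quartile scaling, 0.0553 without the first Parent and 0.0120 without the second NC-1 library. The cause was not tested. Over all genes, 5230, 4763 and 3279 were called in the comparisons of miR-4711-5p with Parent, of miR-4711-5p with NC-1 and of NC-1 with Parent, in that order. With 1.5-fold required the counts were 1112, 976 and 298, and with a library left out they ran from 3164 to 5135, 2815 to 4639 and 1355 to 2296. Without a filter 2165 were called in the last comparison. Upper-quartile scaling turned the split for miR-4711-5p against Parent from 2255 higher and 2975 lower to 2890 and 2358, and that for NC-1 against Parent from 1456 and 1823 to 2029 and 1186. Same-numbered libraries did not deviate together (r = 0.06 for Parent and NC-1, 0.003 for Parent and miR-4711-5p, -0.009 for NC-1 and miR-4711-5p), so over all genes tested the numbers gave no sign of pairing. Of single genes, IFI6 and IFI27 were nonetheless higher in the first library of all 3 groups. With the replicate block 10, 10 and 5 of the 10 genes were called, and 4983, 4564 and 2864 of all genes. Without counts no counting interval can be given, which bears on the interferon genes below 1 FPKM.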
